A study of Danio rerio with 29 samples.

Results

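Whole-body RNA, with the brain removed, was compared between adult zebrafish homozygous for the CRISPR/Cas-9 allele CCSER1_S48Y* of ccser1 (S) and wild-type fish (WT). The comparison took 12 libraries, 6 S and 6 WT, of the 29 libraries of the series, and covered every gene counted in the bodies. The series also holds 6 bodies of a further homozygous ccser1 line, CCSER1_P471 (M), and 11 brains, of which 4 are S, 4 are M and 3 are WT. Wild-type fish were siblings raised from an incross of heterozygotes, of a line that is not named. The labels give no sex, clutch, pooling or batch, and no age beyond adulthood. Nothing says that each library is a separate animal, so p-values here measure only the spread between libraries.

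Ccser1 is a coiled-coil, serine-rich protein, and its human counterpart has been linked to cell division. In an adult female fish the ovary is a large organ filled with oocytes, which store maternal transcripts for egg coat proteins, meiosis, RNA storage and the rapid divisions of the early embryo. A whole-body library therefore carries ovary transcripts in proportion to the ovary it was made from, and genes expressed in oocytes can follow that content. In such bulk RNA, fewer cells of a type and less RNA per cell cannot be told apart.

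The 12 libraries held from 9664847 to 11271379 counts in S and from 10065510 to 11674882 counts in WT. In each body, 11.23% to 16.4% of the counts fell on its 10 most abundant genes. Muscle transcripts dominated in both groups, as in a body sample. The summed level of the skeletal muscle list ran from 150000.0 to 202100.0 CPM (counts scaled to the library total) in S and from 122400.0 to 182300.0 CPM in WT. Liver secreted transcripts, keratins and intestinal transcripts were present in all 12 libraries. Libraries stood apart in several ways, of which the uneven pancreatic enzymes of WT bodies are given further on. The oocyte transcripts differed between the groups, as described next, and the growth hormone transcript gh1, made in the pituitary at the base of the brain, lay between 4.93 and 10.8 CPM in S bodies and between 9.85 and 14.3 CPM in WT bodies 3, 4 and 6, but at or near 0 in WT bodies 1, 2 and 5 (0.0869, 0 and 0 CPM). Bodies 1, 2 and 5 of WT also had the lowest sums of the pituitary list (5.91 to 7.45 CPM) and of the neuron list (704.6 to 976.7 CPM).

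Oocyte transcripts were far lower in S bodies. The 45 matched genes of the oocyte and egg coat list summed to 131, 2894, 1147, 202.4, 115.6 and 100.7 CPM in S bodies 1 to 6, against 22030.0, 16040.0, 4676, 16590.0, 8787 and 3788 CPM in WT bodies 1 to 6. No S body reached the lowest WT body, and within S only bodies 2 and 3 exceeded 1000 CPM. The M bodies lay between 71.1 and 346.7 CPM. Averaged on the log2 scale the sum was 8.31 in S and 13.3 in WT, a difference of -4.96. Because sex is not labelled, an effect of the allele on the ovary and a different make-up of the groups by sex or maturity cannot be told apart.

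**Figure D1:**
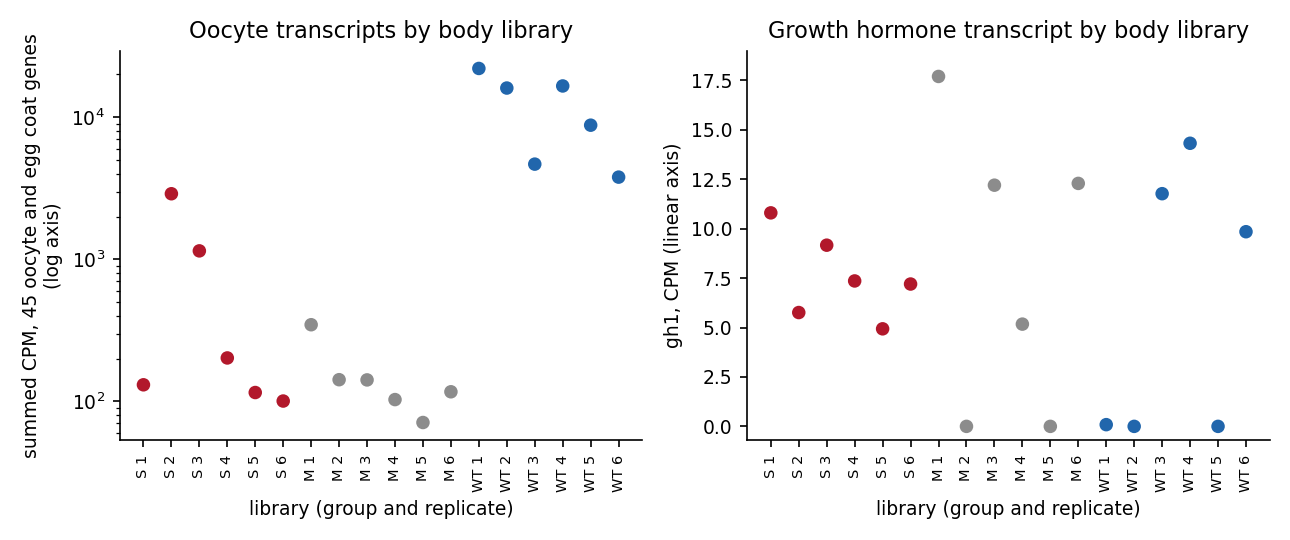
Left, summed CPM of the 45 oocyte and egg coat genes in each body library on a log axis; right, gh1 in CPM on a linear axis, with 1 point per library, S, M and WT from left to right. S bodies 2 and 3 (2894 and 1147 CPM) come nearest to WT bodies 3 and 6 (4676 and 3788 CPM), and gh1 is at or near 0 in WT bodies 1, 2 and 5.

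The oocyte genes shown here were also far lower in S, but not all of them separated the groups. MOS, the kinase that holds the egg in meiosis, held 0.1, 0.528 and 3.81 CPM (lowest, median and highest library, the order used throughout) in S bodies, against 6.4, 20.5 and 37.9 CPM in WT bodies, a log2 change of -4.24 (SE 0.635, adjusted p = 0.000159). The groups did not overlap, and the highest S value belonged to body 2. The egg coat gene zp2.1 spanned 0, 0.573 and 201.8 CPM in S bodies and 332.1, 993.9 and 1818.9 CPM in WT bodies, also without overlap, but the spread within S was so wide that its log2 change of -4.40 missed the threshold (SE 1.71, adjusted p = 0.055). The Balbiani body organiser buc (-4.18, adjusted p = 0.0182) and the oocyte transcription factor figla (-4.06, adjusted p = 0.00312) fell. For both, the groups overlapped through S body 2. It held 62.2 CPM of buc, against 51.6 CPM in WT body 6. Its figla level was 6.86 CPM, against 5.27 and 5.32 CPM in WT bodies 3 and 6. The genes zp2.1, buc and figla are shown as defining oocyte markers, chosen after their values were seen.

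The transcript of ccser1 itself, listed as CCSER1, was low in every body. It was 2.9, 2.37, 2.1, 2.96, 4.64 and 2.02 CPM in S bodies 1 to 6, against 5.22, 4.78, 3.58, 6.51, 3.13 and 4.43 CPM in WT bodies 1 to 6. The groups overlapped through S body 5 and WT bodies 3, 5 and 6, and the log2 change was -0.70 (SE 0.242, adjusted p = 0.0299). Leaving out S body 2 (adjusted p = 0.0543), 3 (0.064) or 6 (0.0677), or WT body 1 (0.0595), 2 (0.0502) or 4 (0.0767), ended this call. With ovary content taken into account, as defined below, the estimate was -0.92 (SE 0.496, adjusted p = 0.605). The counts do not show which bases of the transcript were read, so they do not check the edited site. Of the paralogs, CCSER2 rose by 0.41 (adjusted p = 0.00541; 28.4 ± 3.6 CPM in S and 21.3 ± 1.38 CPM in WT, SD, n = 6 each), with -0.01 under the ovary covariate, and ccser2b did not pass (-0.23, adjusted p = 0.447).

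Of 20240 genes tested, 7445 were called at an adjusted p below 0.05 (36.8%), 3178 of them higher (15.7%) and 4267 lower (21.1%) in S bodies. Changes of at least 2-fold made up 1007 of the higher (4.98% of genes tested) and 1672 of the lower calls (8.26%). The median size of a called change was 0.785 on the log2 scale, and the median over all genes tested was 0.0153. For 2245 genes (11.1%) the 6 S and the 6 WT libraries did not overlap at all, 961 of them called higher and 1243 called lower.

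How far each change went with ovary content was measured mainly in 2 ways, with further fits given after them. For the first, the fit used the log2 sum of the oocyte list as a covariate in the fit. No S body had a WT body at its own oocyte level, so the slope came from the spread within groups and was carried across the whole gap between them. The other set S bodies 2 and 3 against WT bodies 3 and 6, the libraries nearest in oocyte content (2894 and 1147 CPM against 4676 and 3788 CPM), with the spread taken from all 18 bodies. This pairing was chosen after the oocyte levels were seen, all 4 of its bodies hold gh1, and S remains the poorer in oocyte transcripts within it. The share of a change kept is the log2 change under the alternative divided by the log2 change without it.

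Among the 4267 genes lower in S bodies, the covariate turned the sign of 691 (16.2%), left up to 50% of the change in 1899 (44.5%), left 50% to 100% in 1067 (25%) and enlarged it in 610 (14.3%). Their median change was -0.32 with the covariate and -0.81 without it, and the median share kept was 37.9%. These 4267 include 37 genes of the oocyte list, which defines the covariate, so the values of those 37 are not read as results. For the 3178 genes higher in S, 263 turned sign (8.28%), 1140 kept up to 50% (35.9%), 1240 kept 50% to 100% (39%) and 535 were larger (16.8%), with a median share of 56%. Against the nearest WT bodies the median shares were 28.6% for lower and 48% for higher calls, and with the oocyte sum as a linear covariate they were 35.4% and 52.6%.

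The share kept depended strongly on how ovary content was handled. With S bodies 2 and 3 set against all 6 WT bodies, the bodies above the widest gap in oocyte level, the median shares were 84.6% for lower and 90.9% for higher calls, and 0 and 5 genes turned sign. In that fit the oocyte sums still did not overlap, at 2894 and 1147 CPM in S bodies and 3788 to 22030.0 CPM in WT bodies, and no covariate was used. Without the bodies low in gh1, also with no covariate, the shares were 82.1% for lower and 77.3% for higher calls. Lower calls thus kept less than higher ones in the covariate, nearest-body and gap fits, and more without the bodies low in gh1; no test of this was run.

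Within groups, the sign of the slope on the oocyte sum mostly went with the called change, though few slopes passed. Of the genes called lower, 85.7% had a positive slope on the oocyte score within groups, and 83.2% of the genes called higher had a negative one. These slopes belong to the covariate fit. Their signs restate which called changes that fit did not enlarge, so these shares are not separate support. Over all genes tested the median slope was -0.00498. The slope itself passed the test for 600 genes (2.96%), 496 of them rising with oocyte content, and 472 of those 496 were called lower in S bodies. Of the 104 falling with oocyte content, 75 were called higher. For most called genes no slope within groups was thus shown. All these counts include the 44 tested genes of the oocyte list. Those genes define the score, so their part in the counts is not read as a result.

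With the covariate 166 genes were called (0.82%), 81 higher (0.4%) and 85 lower (0.42%), and 1977 had an unadjusted p below 0.05. This count rests on the S bodies that hold oocyte transcripts: it was 53 without S body 2 and 75 without S body 3. Of the 166, 160 were also called without the covariate in the same direction, 78 higher and 82 lower. Between the nearest bodies 384 genes were called (1.9%), 176 higher (0.87%) and 208 lower (1.03%), and 152 of the 160 were among them with the same sign. These bodies are also in the covariate fit, so this overlap is not separate support. The standard error of the called genes had a median of 0.355 with the covariate and 0.282 between the nearest bodies, against 0.2 without either, so a call lost under these fits is not a change shown to be absent.

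**Figure D2:**
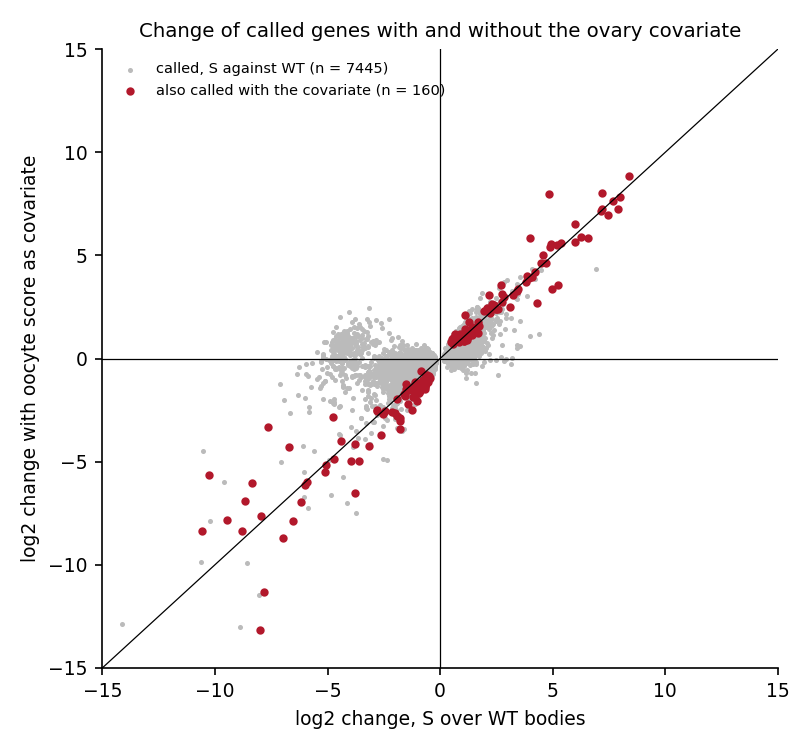
Each point is 1 of the 7445 genes called between S and WT bodies, with its log2 change, S over WT, on the horizontal axis and the log2 change in the fit with the oocyte score as covariate on the vertical axis; the diagonal marks equal values. A cloud of genes near -4 lies at or above 0 with the covariate, while the 160 genes called in both fits (red) share their sign in both and lie on either side of the diagonal, some far from it, such as thy1 at -4.74 and -2.82. The oocyte list, with a median of -4.16, defines the covariate, so the place of its genes is not read as a result.

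The genes of oocytes, meiosis and the piRNA pathway, which silences transposons in the germ line, had the lowest medians of the 47 lists. Beside 21.1% lower and 15.7% higher over all genes, 37 of 44 oocyte genes tested were lower and 1 was higher, with a median log2 change of -4.16. That 1 gene was stm, an otolith protein gene (0.63, adjusted p = 0.00783), named after its value was seen. The list defines the covariate, so its covariate median (0.66) is not read as a result; between the nearest bodies its median was -1. Its member npm2a, an egg nucleoplasmin, (-4.25, adjusted p = 0.000244), the zona pellucida gene zp3d.1 (-4.35, adjusted p = 0.000491) and the oocyte regulator LHX8 (-2.53, adjusted p = 0.000506) fell. Between the nearest bodies these stood at -1.56, -1.01 and -0.55, none of them called.

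In the list of piRNA and meiosis genes, which both gonads use, 22 of 24 were lower, with a median of -3.01, against 0.185 with the covariate. The small RNA methyltransferase gene henmt1 (-4.04, adjusted p = 0.000156), the piRNA pathway cofactor gtsf1 (-3.99, adjusted p = 0.000518) and the synaptonemal complex gene SYCP1 (-3.96, adjusted p = 0.000585) fell, with covariate values of -1.42, -0.34 and -0.26. The recombination cofactor PSMC3IP fell by 2.39 (adjusted p = 4.97e-05) and kept -1.34 with the covariate (adjusted p = 0.462). The testis and sperm list had 7 of 15 tested genes lower, beside 21.1% over all genes. Its median was near that of all genes, at -0.0313, against -0.0093 with the covariate. Its sum ran from 113.6 to 156.6 CPM in S and from 144.4 to 495.7 CPM in WT. SYCP1 stands in both of these lists.

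Cell division genes were lower in S, and their median lay much nearer 0 once oocyte content was taken in. Of 68 tested genes 61 were lower, beside 21.1% over all genes. The list median was -1.49, against -0.316 with the covariate and -0.059 between the nearest bodies. The spindle kinase gene aurka held 0.576, 2.01 and 6.27 CPM in S bodies, against 10.3, 38.2 and 53.2 CPM in WT bodies, a change of -3.71 (SE 0.489, adjusted p = 5.97e-05). No S body reached a WT body, yet the change was -1.21 with the covariate (adjusted p = 0.507) and -1.23 between the nearest bodies (adjusted p = 0.109). AURKB, a related kinase at the centromere (-2.36), the midzone protein gene PRC1 (-2.47) and the kinesin gene kif18a (-1.64) fell, with covariate values of -0.75, -0.98 and -1.21, none called; PRC1 is 1 of several genes listed under that symbol.

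DNA replication followed the same course. Of 55 genes 51 were lower, beside 21.1% over all genes. The list median was -1.24, against -0.437 with the covariate and -0.243 between the nearest bodies. MCM4, a subunit of the replicative helicase, held 35.4, 42.8 and 48.5 CPM in S bodies, against 64.5, 108.5 and 164.9 CPM in WT bodies, without overlap (-1.40, SE 0.191, adjusted p = 5.97e-05; covariate -0.64). The helicase cofactors CDC45 (-2.38; covariate -0.98) and GINS3 (-2.04; covariate -1.03) and the single-strand binding gene RPA2 (-1.07; covariate -0.44) fell as well. In brains, which hold no ovary, the cell division median was 0.000173 over 65 tested genes and the replication median -0.0717 over 50.

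The steroid synthesis list had 5 of 21 genes lower and 1 higher, with a median of -0.0963 and a share of calls under the 36.8% over all genes. The ovarian follicle cell list had 2 of 14 lower and 3 higher, with a median of -0.0171 and sums of 239.6 to 318.2 CPM in S and 243.6 to 285.1 CPM in WT. Single members with the smallest p were far lower in S bodies. The gene hsd3b2, encoding a steroid dehydrogenase, was at 0 in 5 S bodies and at 0.423 CPM in S body 2, against 1.28, 11.7 and 19 CPM in WT bodies, with 5 counts in all S libraries together and 699 in WT. Its log2 change was -6.92 (SE 0.847, adjusted p = 2.69e-05), with -2.0 under the covariate (adjusted p = 0.289) and -3.29 between the nearest bodies (adjusted p = 0.0651). CYP11A1, which starts steroid synthesis from cholesterol, averaged 1.39 ± 2.54 CPM in S and 55.6 ± 36.8 CPM in WT (SD, n = 6 each), a change of -5.25, and -0.53 with the covariate. CYP17A1, the enzyme toward androgens, averaged 0.971 ± 0.455 CPM in S and 21.6 ± 15.8 CPM in WT, a change of -4.46 that kept -2.3 with the covariate (adjusted p = 0.482) and -2.06 between the nearest bodies (adjusted p = 0.0633). The gonadal growth factor gene gsdf fell by 1.3 (adjusted p = 0.00689) and stood at 0.02 with the covariate.

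Lists of several tissues other than the ovary were higher in S. Cartilage had 17 of 25 genes higher, with a median of 1.01, beside 15.7% higher over all genes. The matrix proteoglycan gene epyc held 63, 90.3 and 114 CPM in S bodies, against 17.1, 31.9 and 55.1 CPM in WT bodies, without overlap (1.41, SE 0.267, adjusted p = 0.000779). The cartilage glycoprotein gene cnmd rose by 1.68 and the aggrecan gene acanb by 1.59. The median of the list was 0.0573 with the covariate and -0.0476 between the nearest bodies, and without the 5 bodies low in gh1, 3 WT and 2 M, it was 0.613 with 8 genes called higher, in a fit that called 14.9% of all genes. Cartilage sums were 2046 to 4031 CPM in S, against 1107 to 1232 CPM in WT bodies 1, 2 and 5 and 1745 to 2258 CPM in WT bodies 3, 4 and 6.

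Beside 15.7% higher and 21.1% lower over all genes, neuron genes had a like pattern, with 13 of 39 higher, 2 lower and a median of 1.01. Their median was 0.35 with the covariate, 0.129 between the nearest bodies and 0.443 without the bodies low in gh1, where 1 was called higher and 2 lower. The neurofilament gene NEFL rose by 0.53 and SNCG, a synuclein gene, by 0.60, and SNCG and STMN1 are each 1 of several genes so listed. The fallen members, UCHL1 (-2.10; covariate 0.03) and STMN1 (-1.44; covariate -0.14), encode a deubiquitinating enzyme and a microtubule regulator. Brain is not part of these bodies, so the list reads spinal cord, nerves and any tissue left at the head.

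Kidney tubule genes were higher in 8 of 25 cases and gill ionocyte genes in 7 of 23, with medians of 0.277 and 0.455, against -0.0569 and 0.196 with the covariate. Over all genes 15.7% were called higher, and 36.8% in either direction. PAX2, a kidney transcription factor gene, rose by 1.23, the sulfate transporter gene SLC13A1 by 0.79, the ammonia channel gene RHCG by 0.80 and the chloride channel gene CFTR by 0.74, with covariate values from 0.28 to 0.42, none called. RHCG is 1 of several genes of that name. Collagens and related matrix genes gave 17 higher and 5 lower of 54, with a median of 0.248, against -0.0594 with the covariate; LOXL2, a collagen cross-linking oxidase gene, fell by 0.57 and was also called with the covariate (-0.78, adjusted p = 0.0335).

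The muscle list sums overlapped between the groups. Of its 47 tested genes 9 were higher and 4 lower, with a median of 0.0246, beside 36.8% called over all genes. Some single myosins did not overlap, as was so for 11.1% of all genes tested. The slow myosin gene smyhc1 held 343, 550.4 and 660.7 CPM in S bodies, against 121.8, 181.5 and 333.5 CPM in WT bodies (1.33, SE 0.209, adjusted p = 0.000188), and 0.16 with the covariate. The abundant fast myosin gene myhz1.1 also rose, at 17919, 23700 and 29011 CPM in S bodies, against 3955.6, 7962 and 16810 CPM in WT bodies (1.39, adjusted p = 0.000453; covariate 0.44). The fast myosin gene myhc4 held 116.5, 240.6 and 1752.3 CPM in S bodies, against 5613.4, 13840.0 and 17507 CPM in WT bodies (-4.47, SE 0.711, adjusted p = 0.000318). These groups were far apart, the highest S value was that of body 2 and the next that of body 3, and the change was -2.34 with the covariate (adjusted p = 0.188) and -2.87 between the nearest bodies (adjusted p = 0.0642). Myosin heavy chain genes are near-identical in sequence, and how the counting divided such reads is not given in the sources used here.

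Digestive enzymes of the pancreas went another way. Their 24 genes had a median of 0.919 with 3 called higher, and 3.03 with 19 higher between the nearest bodies. Over all genes 15.7% and 0.87% were called higher in these fits. The list summed to 17930.0 to 32920.0 CPM in S bodies, against 2142 to 4391 CPM in WT bodies 3, 4 and 6 and 20710.0 to 26650.0 CPM in WT bodies 1, 2 and 5, so WT was uneven. WT bodies 3 and 6, the WT side of the nearest-body contrast, are both among the low ones, so that contrast also differs in pancreatic transcripts. The chymotrypsin-like gene ctrl held 711.9, 1186 and 1543.4 CPM in S bodies, against 54.2, 328 and 732.1 CPM in WT bodies (1.64, SE 0.543, adjusted p = 0.0276). The groups overlapped, and that call was lost without S body 1 (adjusted p = 0.0519) or WT body 4 (0.0598).

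**Figure D3:**
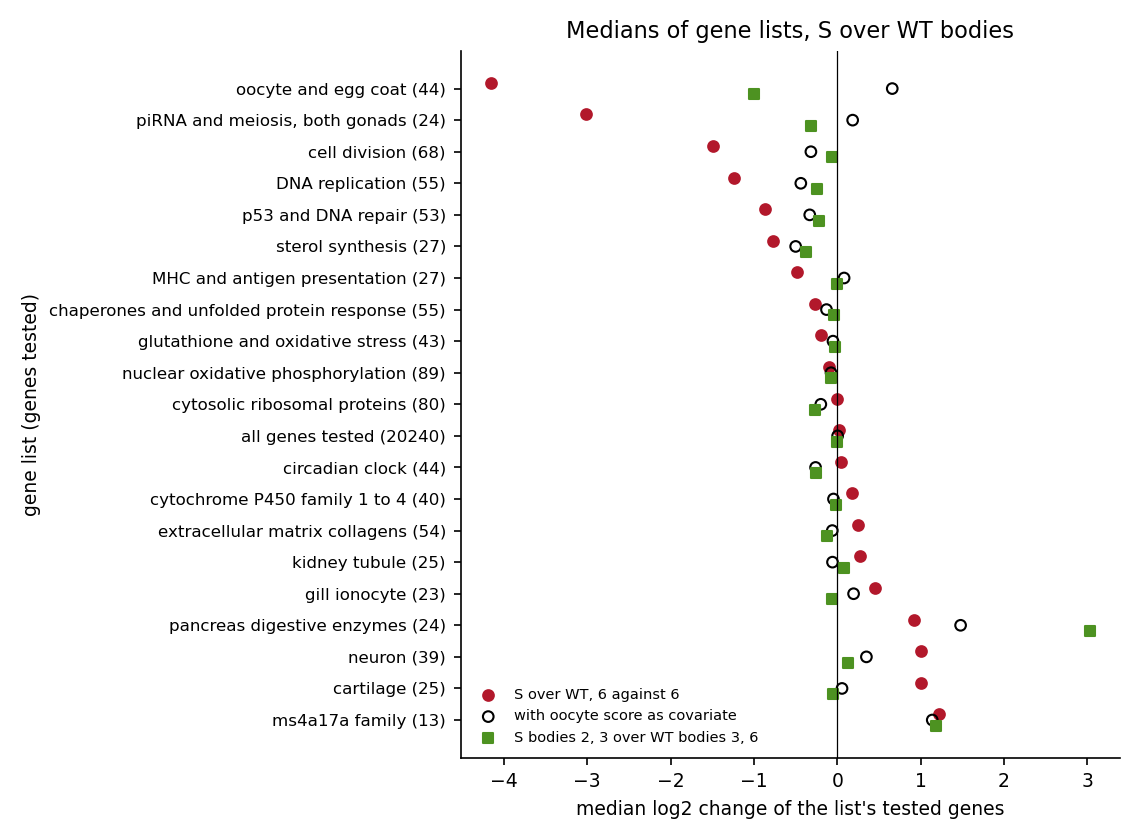
Median log2 change, S over WT bodies, of the tested genes of 20 gene lists and of all genes tested, in the plain fit (filled circles), with the oocyte score as covariate (open circles) and between S bodies 2 and 3 and WT bodies 3 and 6 (squares). The cell division median is -1.49, -0.316 and -0.059 in the 3 fits, while the ms4a17a family stays at 1.22, 1.14 and 1.19.

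A set of genes was called whether or not oocyte content was taken into account. The 160 genes called with and without the covariate comprised 90 with gene names and 70 with clone names or bare identifiers only. Without the bodies low in gh1, 158 of them were called with the same sign, in a fit that called 14.9% of all genes. That fit reuses libraries on which the 160 were selected, so it is not separate support. Of the 160, 107 differed between S and M bodies in the same direction, a contrast in which 8.11% of all genes tested were called. That contrast uses the same S libraries on which the 160 were selected, so this count is not separate support either. The 160 include transcripts nearly absent from WT. KYAT3, an aminotransferase gene of the kynurenine pathway, 1 of several genes of that symbol, held 4.16, 5.93 and 9.06 CPM in S bodies, against 0, 0 and 0.0955 CPM in WT bodies. Counts were 407 in S and 2 in WT, a ratio of 211 (95% interval 57.9 to 1740, counting error only; adjusted p = 3.36e-08, and 1.25e-06 with the covariate). The P450 gene cyp2x10.1 held 6.68, 7.98 and 14.8 CPM in S bodies, against 0, 0 and 0.0922 CPM in WT bodies, 589 counts against 1, a ratio of 609 (interval 109 to 24100.0). Every S library held both transcripts. M bodies averaged 0.0336 CPM of KYAT3 and had no count of cyp2x10.1.

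Other single genes that rose had no overlap between S and WT libraries. The P450 gene cyp2p7 held 21.9, 24.6 and 34.6 CPM in S bodies, against 3.63, 4.35 and 4.89 CPM in WT bodies (2.56, SE 0.218, adjusted p = 3.1e-07; covariate 2.4, adjusted p = 0.00254). Its relative cyp2n13 averaged 113 ± 17.1 CPM in S and 49.6 ± 6.82 CPM in WT (1.18; covariate 0.90, adjusted p = 0.0212). Family 2 did not move in 1 direction, since cyp2p10 fell by 2.14 (covariate -1.67, adjusted p = 0.205) and cyp2k20, chosen after its values were seen, fell by 1.24 (covariate -2.50, adjusted p = 0.0453). In all, 13 of 40 P450 genes of families 1 to 4 were higher and 4 lower, beside 15.7% and 21.1% over all genes. Reads of such close paralogs may be split between them. The acyl-CoA binding gene acbd4 held 5.33, 6.24 and 7.87 CPM in S bodies, against 0.369, 0.519 and 1.04 CPM in WT bodies (3.43, SE 0.357, adjusted p = 3.82e-06; covariate 3.30, adjusted p = 0.00729).

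The genes named by smallest p also included 3 solute carriers, each with every S library above every WT library; no list of transporters was examined. SLC15A2, a peptide transporter gene, held 142.9, 148.2 and 181.1 CPM in S bodies, against 1.51, 3.85 and 5.25 CPM in WT bodies (5.39, SE 0.603, adjusted p = 1.89e-05; covariate 5.62, adjusted p = 0.00362). The S libraries lay close together and far above every WT library, while M bodies averaged 84.4 ± 68.6 CPM. SLC16A8, a monocarboxylate transporter gene, held 6.68, 7.51 and 8.55 CPM in S bodies, against 0.558, 0.996 and 2.17 CPM in WT bodies (2.74, SE 0.273, adjusted p = 2.18e-06; covariate 2.75), with 1.26 CPM on average in M. The mitochondrial carrier gene slc25a14 held 24.3, 31.9 and 40.7 CPM in S bodies, against 14.3, 17.1 and 20.2 CPM in WT bodies (0.88, SE 0.126, adjusted p = 8.22e-05; covariate 1.18, adjusted p = 0.00825).

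Beside 15.7% higher and 21.1% lower over all genes, the ms4a17a genes, a fish family of multi-pass membrane proteins, had 10 of 13 tested members higher and 1 lower. Their median was 1.22, against 1.14 with the covariate and 1.19 between the nearest bodies, and the family sum was 153.6 to 203.9 CPM in S and 99.5 to 122.5 CPM in WT. Its member ms4a17a.16 held 8.6, 11.4 and 14.3 CPM in S bodies, against 0.86, 1.03 and 1.21 CPM in WT bodies (3.45, SE 0.253, adjusted p = 4.69e-08; covariate 3.39, adjusted p = 0.000156), and ms4a17a.11 rose by 1.47 (covariate 1.34, adjusted p = 0.00271). In the other direction ms4a17a.7 fell by 1.15 (covariate -1.57, adjusted p = 0.0759). These are tandem paralogs, and shared reads make each single value uncertain.

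Other single genes that rose, without overlap between the groups, were a keratin, a class II gene and 2 enzymes of central metabolism. Their lists did not rise with them. Of 37 skin and keratin genes 7 were higher and 9 lower, with a median of -0.183, beside 15.7% and 21.1% over all genes. Antigen presentation genes were lower more often than higher, as given further on. The keratin gene cyt1 held 42.3, 118 and 144.1 CPM in S bodies, against 1.7, 3.02 and 5.02 CPM in WT bodies (4.99, SE 0.4, adjusted p = 3.33e-07). S bodies 2 and 3, the ones with oocyte transcripts, were its lowest, at 42.3 and 47.4 CPM, and the covariate value was 3.36 (adjusted p = 0.00362). The class II antigen presentation gene mhc2d4b held 8.54, 11.4 and 12.2 CPM in S bodies, against 1.88, 2.43 and 3.39 CPM in WT bodies (2.07, SE 0.184, adjusted p = 4.42e-07; covariate 2.45, adjusted p = 0.000278). BHMT, a methionine cycle enzyme gene chosen after its values were seen, held 605.6, 697.4 and 838.4 CPM in S bodies, against 263.8, 294.2 and 396.4 CPM in WT bodies (1.18; covariate 1.3, adjusted p = 0.0147). GPI, the glycolytic glucose-6-phosphate isomerase and 1 of several genes so listed, rose by 1.41 (covariate 1.14, adjusted p = 0.0222) at 71.4 ± 8.26 CPM in S and 26.8 ± 5.15 CPM in WT, with 2.36 CPM in M.

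**Figure D4:**
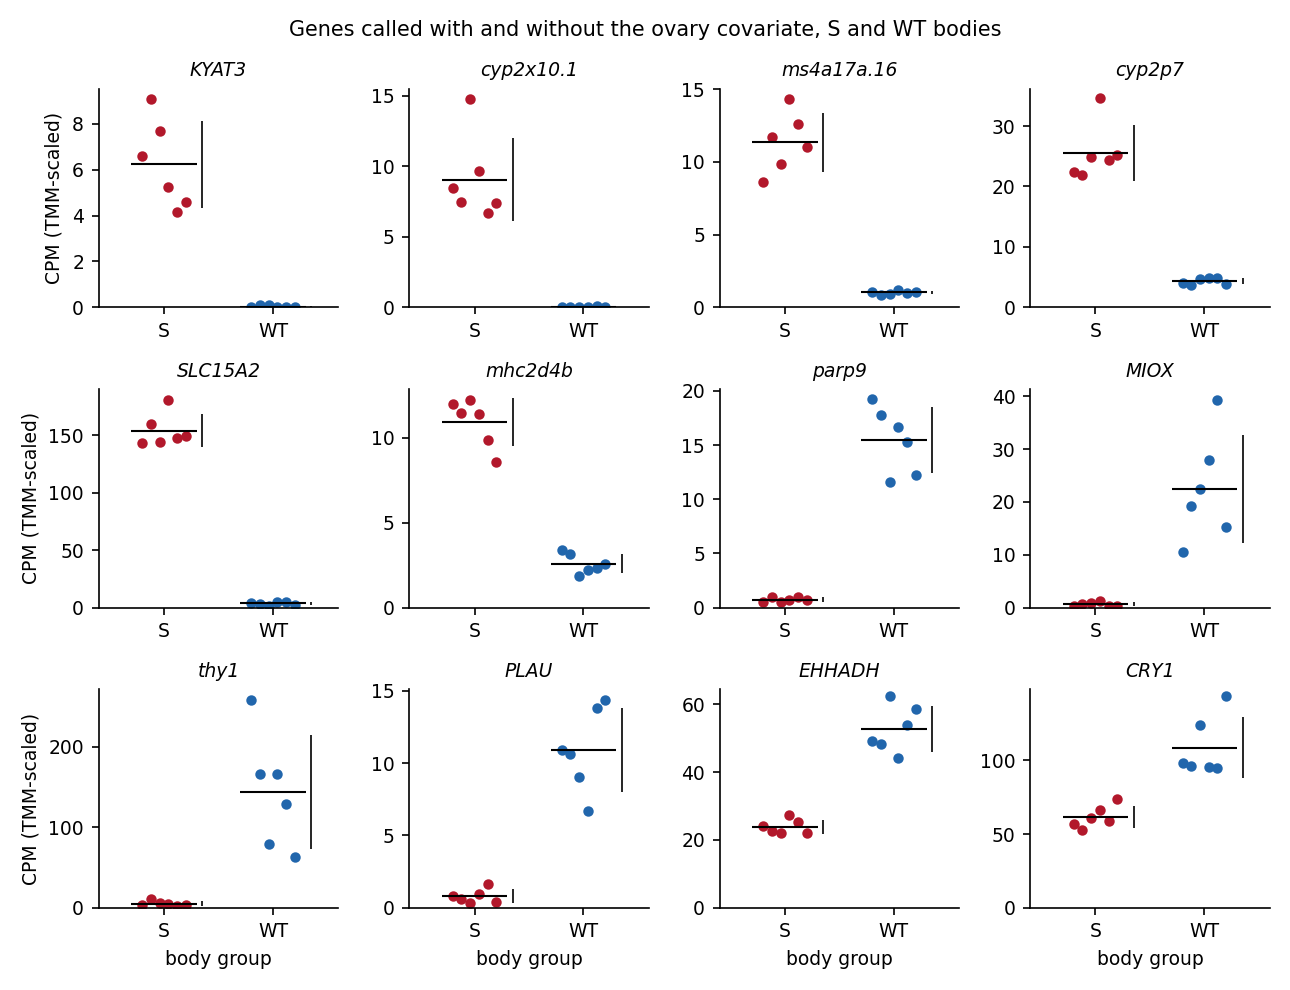
CPM of 12 genes called with and without the ovary covariate, 1 point per body library, S left of WT in each panel, with the group mean as a horizontal line and the SD as a vertical bar. In all 12 panels the 6 S and the 6 WT libraries do not overlap, 6 genes being higher and 6 lower in S.

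Among genes that fell and stayed down, parp9, an ADP-ribosyltransferase gene of the interferon response, held 0.5, 0.67 and 1.02 CPM in S bodies, against 11.6, 16 and 19.2 CPM in WT bodies (-4.39, SE 0.267, adjusted p = 4.2e-09; covariate -3.98, adjusted p = 0.000268). M bodies averaged 16.9 CPM. MIOX, which opens the ring of inositol, held 0.288, 0.575 and 1.24 CPM in S bodies, against 10.6, 20.9 and 39.4 CPM in WT bodies (-5.06, SE 0.404, adjusted p = 2.19e-07; covariate -5.16, adjusted p = 0.00211), with 17.9 CPM in M. For both genes every S library lay below every WT library, and the M average lay far above the S libraries.

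The surface glycoprotein gene thy1 fell and also followed the oocyte sum. It held 2.52, 4.43 and 10.6 CPM in S bodies, against 62.5, 147.6 and 258.4 CPM in WT bodies (-4.74, SE 0.375, adjusted p = 2.79e-07). Its lowest WT libraries were bodies 3 and 6 and its highest S library was body 2, and the change was -2.82 with the covariate (adjusted p = 0.000156) and -3.05 between the nearest bodies (adjusted p = 4.63e-05). PLAU, the urokinase gene, held 0.349, 0.696 and 1.64 CPM in S bodies, against 6.69, 10.7 and 14.4 CPM in WT bodies (-3.78, SE 0.364, adjusted p = 1.43e-06; covariate -4.15), and GSTM3, a glutathione transferase gene and 1 of several so listed, held 1.26, 1.95 and 2.77 CPM in S bodies, against 6.03, 8.47 and 11.6 CPM in WT bodies (-2.12; covariate -2.57). Neither gene had overlapping groups, and M bodies were low in both, at 0.941 CPM each.

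Of 40 genes of fatty acid synthesis and oxidation 9 were lower and 2 higher, with a median of -0.109, beside 21.1% lower over all genes. EHHADH, a peroxisomal enzyme of fatty acid oxidation, held 22, 23.4 and 27.23 CPM in S bodies, against 44.1, 51.5 and 62.3 CPM in WT bodies (-1.14, SE 0.124, adjusted p = 5.93e-06; covariate -1.39, adjusted p = 0.00362). The lipase gene lipeb fell by 0.61 (covariate -1.17, adjusted p = 0.0106). The endocytic receptor gene lrp2b held 38.61, 50.3 and 68.7 CPM in S bodies, against 108, 146 and 157 CPM in WT bodies (-1.41, SE 0.194, adjusted p = 6.18e-05; covariate -2.21, adjusted p = 0.00101), and M bodies averaged 246 CPM. Smaller falls that the covariate left called were those of the actin regulators FLII (-0.83; covariate -0.63) and FHOD1 (-0.69; covariate -1.31), the ADP-ribosylation hydrolase adprh (-1.33; covariate -1.43), the folding cofactor PDCL3 (-0.74; covariate -1.02) and the RNA-binding FXR2 (-0.53; covariate -0.93).

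Of the 313 genes called with the same sign in the plain fit and between the nearest bodies, 152 were also called with the covariate. From the rest, which were not called with it, 3 steep falls are given here as examples. They were the serine protease gene tmprss4b (-6.08; covariate -4.24, adjusted p = 0.0876; nearest bodies -5.22, adjusted p = 0.00382), the guanylate-binding gene gbp3 (-2.66; covariate -2.25, adjusted p = 0.0778; nearest bodies -2.27, adjusted p = 0.00728) and the deubiquitinase gene USP48 (-1.43; covariate -1.12, adjusted p = 0.0712; nearest bodies -1.04, adjusted p = 0.0136). In these 3 the M average lay at the S level, at 0.447 CPM for tmprss4b, 3.89 CPM for gbp3 and 6.2 CPM for USP48. That was not so for all such falls. For cyp2p10 and HSD3B7, which were also called between the nearest bodies only, the M averages of 6.22 and 64.2 CPM lay between those of S and WT.

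The p53 pathway and DNA repair list had 37 of 53 genes lower and 2 higher, beside 21.1% lower and 15.7% higher over all genes. The list median was -0.869, against -0.33 with the covariate and -0.222 between the nearest bodies. Its repair members stood nearer 0 with the covariate. FANCI (-2.70; covariate -1.13), exo1 (-2.24; covariate -0.57), recql4 (-2.02; covariate -0.82) and the cell cycle gene gtse1 (-2.3; covariate -0.84) fell, none of them called with the covariate. The gene mdm2, encoding the ligase that degrades p53, held 20.9, 25.9 and 29.5 CPM in S bodies, against 35.4, 40.5 and 68.3 CPM in WT bodies (-0.88, SE 0.165, adjusted p = 0.000626), and the fall was larger with the covariate (-1.58, adjusted p = 0.00211) and between the nearest bodies (-1.56, adjusted p = 0.000136). The S bodies with oocyte transcripts, 2 and 3, were its lowest, and the WT bodies poorest in oocyte transcripts, 3 and 6, were its highest, at 68.3 and 60.6 CPM.

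Other p53 targets, chosen after their values were seen, are given in the same way. CCNG1, a cyclin G gene, held 572, 662.3 and 791.8 CPM in S bodies, against 934, 1068 and 1735 CPM in WT bodies (-0.83, adjusted p = 0.000407; covariate -1.02, adjusted p = 0.0841; nearest bodies -1.20, adjusted p = 0.00107). For rps27l, a ribosomal protein paralog, the levels were 20.6, 29 and 33.6 CPM in S bodies and 34.5, 42.4 and 76.9 CPM in WT bodies (-0.86, adjusted p = 0.00276; covariate -1.35, adjusted p = 0.0739; nearest bodies -1.43, adjusted p = 0.0108), and SESN1, a sestrin gene, fell by 0.57 (covariate -1.16, adjusted p = 0.129; nearest bodies -1.22, adjusted p = 0.0164). The cell cycle inhibitor gene cdkn1a rose instead, at 27.9, 35.2 and 42.1 CPM in S bodies, against 16.4, 19 and 28.5 CPM in WT bodies (0.76, adjusted p = 0.00888), and stood at 0.22 with the covariate (adjusted p = 0.916). These p53 targets thus moved in both directions. The groups overlapped for cdkn1a and for SESN1. The latter ran from 116 to 243.3 CPM in S bodies and from 211.5 to 306.1 CPM in WT bodies.

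**Figure D5:**
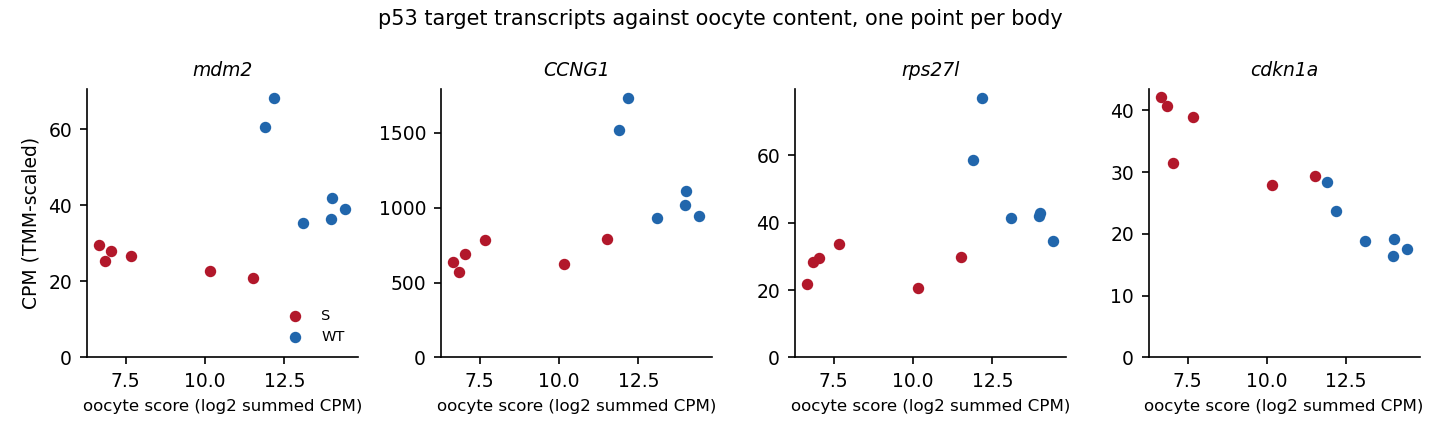
CPM of mdm2, CCNG1, rps27l and cdkn1a against the oocyte score (log2 of the summed CPM of the oocyte list), 1 point per S or WT body. The highest WT values of mdm2, CCNG1 and rps27l belong to the WT bodies lowest in oocyte score, while cdkn1a declines along the score across both groups. Score and group go together here. The slope within groups did not pass for CCNG1, rps27l or cdkn1a (edgeR, adjusted p = 0.678, 0.381 and 0.386).

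Sterol synthesis fell, with 16 of 27 genes lower, beside 21.1% over all genes. The list median of -0.772 kept -0.499 with the covariate and -0.377 between the nearest bodies. There, beside 1.03% of all genes, 2 members were called lower. Those were insig1, which retains the sterol sensor in the endoplasmic reticulum, and the low-density lipoprotein receptor gene ldlra. The levels of insig1 were 61.6, 76.8 and 124 CPM in S bodies, against 127, 186 and 229 CPM in WT bodies (-1.09, SE 0.182, adjusted p = 0.000276; nearest bodies -1.39, adjusted p = 0.0296), and ldlra fell by 0.79 (nearest bodies -1.09, adjusted p = 0.0317). The pathway enzymes MVK (-1.56; covariate -0.92) and NSDHL (-1.62; covariate -1.36) fell without staying called under either. HSD3B7, an enzyme of bile acid synthesis, fell by 1.46 (nearest bodies -1.33, adjusted p = 0.0274), and slc27a2a, a fatty acid transporter gene, rose by 1.1 (nearest bodies 0.62, adjusted p = 0.0349).

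Of 44 clock genes 12 were higher and 7 lower, beside 36.8% called over all genes, with a median of 0.0498. CRY1, a cryptochrome repressor and 1 of several genes so listed, held 52.6, 59.9 and 73.5 CPM in S bodies, against 94.5, 97.2 and 143 CPM in WT bodies (no overlap; -0.82, SE 0.111, adjusted p = 5.32e-05; covariate -1.19, adjusted p = 0.00254). The output factor gene dbpa rose by 1.21 (covariate 0.81, adjusted p = 0.145), nr1d4b, a nuclear receptor gene, by 1.83 (covariate 0.31), and cry4 fell by 1.01 (covariate -1.0, adjusted p = 0.181). The hour at which fish were sampled is not labelled. Class I and class II antigen presentation genes were lower in 11 of 27 cases and higher in 3, with a median of -0.488, against 0.0823 with the covariate; the class I gene mhc1uca fell by 3.04 (covariate -2.28, adjusted p = 0.175), and such genes vary between fish in sequence and number.

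Chaperones gave 25 lower and 3 higher of 55, beside 21.1% lower and 15.7% higher over all genes. The list median was -0.266, against -0.129 with the covariate and -0.0408 between the nearest bodies. The 4 members with the smallest p were SEC61A1 (-0.92, covariate -0.16), STIP1 (-0.69, covariate -0.26), dnajb1b (-1.77, covariate -0.04) and HSF2 (0.59, covariate 0.28). None of these was called with the covariate. The chaperone gene hsp90aa1.1, chosen after its values were seen, fell by 1.12 (covariate -1.79, adjusted p = 0.0453), with overlap between the groups. Glutathione and oxidative stress genes gave 18 lower and 4 higher of 43, with a median of -0.192, against -0.0509 with the covariate. The adult globin gene hbaa1 held 677.6, 876.6 and 1319.4 CPM in S bodies, against 1193.7, 1582 and 1849.3 CPM in WT bodies (-0.71, SE 0.167, adjusted p = 0.00331; covariate -1.38, adjusted p = 0.0228), with overlap between the groups, and globin genes are near-identical copies. Alcohol and aldehyde metabolism genes, in view of the interest of the series in alcohol response, gave 5 higher and 10 lower of 34 with a median of -0.096, against 36.8% called over all genes, and cyp2p7 was their 1 member called with the covariate. Cytosolic ribosomal proteins moved little in the plain fit, with 3 higher and 1 lower of 80 and a median of -0.00278. Their median was -0.197 with the covariate, where 0 were called, and -0.262 between the nearest bodies. In the latter 1 was called higher and 4 lower, beside 0.87% and 1.03% of all genes.

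Brains offered libraries without ovary, though they may come from the same fish as the bodies. The contrast of 4 S with 3 WT brains called 1935 of 18733 genes (10.3%), 1048 of them higher (5.59%) and 887 lower (4.73%). Of 17193 genes tested in both tissues, 520 were called in both with the same sign (3.02%). These comprised 270 rises and 250 falls, and a further 136 genes had opposite signs. The 520 are 8.24% of the 6310 body calls tested in brain and 29.2% of the 1782 brain calls tested in bodies. Beside these same-sign shares, 10.3% of all genes tested in brains and 36.8% of those tested in bodies were called in either direction. The size of the overlap is therefore not read as a result, and no test of it was run. Among the genes called with the covariate, 119 were tested in brain, and 18 were called there with the same sign (15.1%) and 3 with the opposite one.

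Named genes shared by both tissues included brms1la, of a histone deacetylase complex, which held 5.8, 7.64 and 8.21 CPM in S bodies, against 16.9, 20 and 26.2 CPM in WT bodies (-1.49, SE 0.131, adjusted p = 3.96e-07; covariate -1.25, adjusted p = 0.0197). In brains brms1la averaged 28.2 CPM in S and 59.7 CPM in WT (-1.08, adjusted p = 0.000682). The carrier gene slc25a14 averaged 88.6 CPM in S brains and 47.1 CPM in WT brains (0.91, adjusted p = 0.00154), and SLC15A2 16.6 CPM in S brains and 1.18 CPM in WT brains (3.81, adjusted p = 0.0422). The nucleic acid binding gene PURA, 1 of several of that name, rose by 1.14 in bodies (covariate 1.24, adjusted p = 0.00962) and by 0.42 in brains, and the difference passed its own test (0.66, adjusted p = 0.0198).

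Other shared genes were not called once ovary content entered. The prolactin receptor gene PRLR rose by 1.13 in bodies (covariate 0.89, adjusted p = 0.223) and by 0.91 in brains (adjusted p = 0.000906), and the tetraspanin gene tspan5a by 0.91 and 1.25 (covariate 0.70, adjusted p = 0.383). The zinc finger gene ZBTB11 fell in bodies (-1.17; covariate -0.55) and in brains (-1.02), as did the topoisomerase gene TOP3A (-1.08 in bodies, covariate -0.23, and -1.12 in brains). The kinase gene PTK2B, 1 of several so listed, rose by 1.14 in bodies and by 4.20 in brains, a difference of -3.12 (adjusted p = 1.33e-05), and CAP1, an actin-binding gene, fell in both (-1.17 in bodies and -2.51 in brains), a difference of 1.27 (adjusted p = 0.0322). The signalling ligand gene gdf3, which oocytes store for the embryo, fell both in bodies (-4.68; covariate -1.03, adjusted p = 0.787) and in brains (-3.08, adjusted p = 4.16e-07), where no ovary is present.

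The chromosome that carries ccser1 held no larger share of called genes. Of 599 tested genes placed on it 36.2% were called, against 37.9% of all 14073 placed genes, and 1 was called with the covariate. Among the 100 placed genes whose starts lie nearest to that of ccser1, 30 were called (30%). With the covariate edgeR called 0 of them. There 6 had an unadjusted p below 0.05, against 1337 of all 14073 placed genes.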

How the data were processed

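Raw counts of reads per gene were deposited by the authors for 32520 genes, from poly(A) RNA read as 150 bp pairs on an Illumina HiSeq, per the labels. STAR and the builds GRCz11 and GRCz10 appear, without roles, in the submitters' processing notes. No source used here gives the counter, the annotation or whether strand was used, so reads of overlapping, antisense or near-identical genes may be split.

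The quasi-likelihood F test of edgeR 4.0.16 in R 4.3.3 was applied to the counts (TMM, robust, default filter on low counts), all 18 bodies in 1 fit, contrast S minus WT. Calls have a Benjamini-Hochberg adjusted p below 0.05, and edgeR is the source of each adjusted p. Levels are CPM after TMM scaling (factors 0.8574 to 1.084), given as lowest, median and highest library or mean ± SD, and compare libraries, not genes, since they are not per length. Changes are log2. The biological coefficient of variation was 0.292 in bodies, 0.253 with the covariate and 0.202 in brains. Tissue differences were tested as interactions over all 29 libraries, each taken as separate. The labels do not say whether a brain and a body came from the same fish, so no pairing entered that fit. No 2 libraries of a group duplicated each other (chi-square per degree of freedom 7.85 to 92.3 in 30 pairs). The fits were tested on simulated counts in which S differed by 2-fold or 4-fold for some genes and ovary content had no effect. The plain fit recovered 65.5% of the 2-fold and 92% of the 4-fold changes. With the covariate 7.96% and 64.4% were recovered, so in this simulation that fit missed most 2-fold changes. The simulated spread was that of the plain fit. Of 19994 genes, 113 were changed 2-fold and 87 were changed 4-fold, far fewer than were called between the bodies. The rates therefore need not hold for the real counts.

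Named genes are ccser1 and its paralogs, the 12 per direction with the smallest p in the plain and covariate fits, the 8 per direction shared with brain, up to 4 per list and the ms4a17a family; clone names were passed over. Members and the 47 lists were chosen with earlier results of these data known. Symbols come from a supplied table (29201 genes, 89.79%), which gives many zebrafish genes human symbols in capitals. Alternatives were DESeq2 1.42.0, RLE factors, other filters, a non-robust fit, S and WT alone, the replicate block, left-out libraries, a fold minimum and further ovary covariates. The linear covariate, the nearest-body contrast and the fit without S bodies 2 and 3 were added after seeing the data.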

Additional observations from a re-analysis of the deposited data

Results flagged for a closer look

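Of 82 groups of 6 libraries examined, 8 held a library far from the others by Dixon's ratio. Its chance rate of about 1 in 20 groups assumes normal values. Groups here share libraries and some hold almost no counts, so the 8 are not set against that rate. S body 2 stood above the other S bodies in the oocyte list sum (2894 CPM), in MOS (3.81 CPM) and in hsd3b2 (0.423 CPM, the only S library with a count). S body 4 was high in insig1 (124.3 CPM) and in cyp2p7 (34.6 CPM), S body 3 in cyp2x10.1 (14.8 CPM) and S body 5 in CCSER1 (4.64 CPM). WT body 5 was the only WT library with a count of cyp2x10.1 (0.0922 CPM).

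Only the 8 genes per direction named as shared with brain were screened here for a differing effect of S, by the interaction over 29 libraries. It passed for 3 of them, as the log2 change in bodies minus that in brains: -3.12 for PTK2B, 1.27 for CAP1 and 0.66 for PURA. Outside that set dbpa, called higher in both tissues, also differed (0.69, adjusted p = 0.0297 by the same test).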

How the results depend on the processing

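The 7445 calls between S and WT bodies stayed within 1.5 times under RLE factors, DESeq2, a non-robust fit, a 1 CPM filter, no filter, S and WT bodies alone, TMM without ovary and cell cycle lists and the fit without S bodies 2 and 3, and ranged from 5791 to 9169 when a library was left out. They became 166 with the ovary covariate, 228 with ovary and testis covariates, 609 with the linear covariate, 204 with bodies above the oocyte gap alone, 384 between the nearest bodies, 3091 without bodies low in gh1 (14.9% of 20745), 4502 at a minimum of 1.2-fold and 2679 at 2-fold. The 166 calls of the covariate fit became 609 with the linear form and 251 without bodies low in gh1, and ranged from 53 to 174 with a library left out.

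The brain count of 1935 ranged from 895 (without WT brain 3) to 2270, and was 1131 or 1208 when S brain 2 or 4 was left out. The 520 genes shared by both tissues became 18 with the covariate, 26 between the nearest bodies and 96 at an adjusted p below 0.01, and ranged from 389 to 733 with a library left out. S against M gave 1642 calls (8.11%), and 1221 to 1919.

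The changes that turned sign with the ovary covariate (value after it for ovary and testis covariates) were those of UCHL1 (0.0278 and 0.0886), gsdf (0.0229 and 0.0522), zp2.1 (1.25 and 1.85), figla (1.002 and 0.956), CCSER2 (-0.0111 and -0.009614) and buc (1.18 and 1.22); zp2.1, figla and buc are members of the covariate list, so theirs are not read as results. For 120 named genes over 18 fits with a library left out, 2150 kept their direction and side of the threshold, 8 lost it, 2 gained it and 0 reversed.

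Replicate numbers do not pair S and WT bodies: residual correlations of like numbers ran from -0.203 to 0.32 (median -0.0973, 2 of 6 above 0.1, 1 a mutual best match). The replicate block gave 7945 calls, 24 with the covariate. Depth limits low genes such as KYAT3 in WT, where 2 counts leave the ratio open by counting error. Ovary content, gh1 and genotype overlap in these groups, so their parts cannot be told apart beyond the values given.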
